A study of Mus musculus with 4 samples.

Results

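Denervated tibialis anterior (TA) muscle of Fgf21KO mice (KD) was compared with denervated TA muscle of WT mice (WD) 14 days after the sciatic nerve was cut. Fgf21KO mice lack Fgf21 in the whole body, and the WT mice were C57BL/6J; the strain background of the knockout is not given in the sources used here. The mice were adult males, and the sham muscles of the same 2 genotypes (WS for WT, KS for Fgf21KO) stand beside the denervated ones as the remaining 2 of the 4 libraries. The series' design text takes the intact right leg of each mouse as its control, and the study's methods describe sham surgery on that limb. RNA of 4 muscles was pooled into 1 library per group, so no difference below has a replicate check, no test with a measured biological spread was possible within denervated muscle, and each interval given is a 95% interval for counting error only. The count table held 13825 genes, and 11375 of them were kept because their counts in WD and KD averaged at least 50. WD held 29150147 counts and KD 27740920, while WS held 25249879 and KS 34141303. Counts of single genes below are raw, so a gene can have more counts in KS than in WS and still a log2 ratio below 0. Counts of the deleted gene, Fgf21, were not analysed here and could not serve as a check of the genotypes.

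FGF21 is a hormone of the fibroblast growth factor family that signals through FGF receptors together with the co-receptor β-Klotho. It is made mainly by the liver, and muscle fibres make it under mitochondrial stress, fasting or loss of their nerve. A denervated muscle switches on acetylcholine receptor subunits, class IIa histone deacetylases and ubiquitin ligases, and its fibres shrink over days to weeks. The comparison asks how the denervated transcriptome differed when FGF21 was absent.

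The denervated transcriptomes of the 2 genotypes lay close together. The median log2 ratio of KD over WD (CPM, read counts relative to library size, scaled by the trimmed mean of M-values, TMM, with a prior count of 2) was −0.01 over the 11375 genes, and 85.2% of them were within 1.2-fold. At least 2-fold apart were 43 genes, of which 26 were higher in KD (0.229% of the genes) and 17 were lower (0.149%). At least 1.5-fold apart with a counting interval that excluded 0 were 138 higher genes (1.21%) and 125 lower genes (1.1%). Counting error alone was smaller than the spread of the ratios at every level of expression. Among the 1077 genes with mean counts of 50 to 100, the spread (scaled median absolute deviation) was 0.37 on the log2 scale against a median counting error of 0.24, and among the 1500 genes with mean counts of at least 3000 it was 0.08 against 0.03. Of the 43 genes, 24 had mean counts under 100 and 4 had mean counts over 1000. Just outside the filter on low counts, 11 of 313 genes with mean counts of 40 to 50 were at least 2-fold apart (3.51%), and just inside it 11 of 260 genes with mean counts of 50 to 60 were (4.23%).

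**Figure D1:**
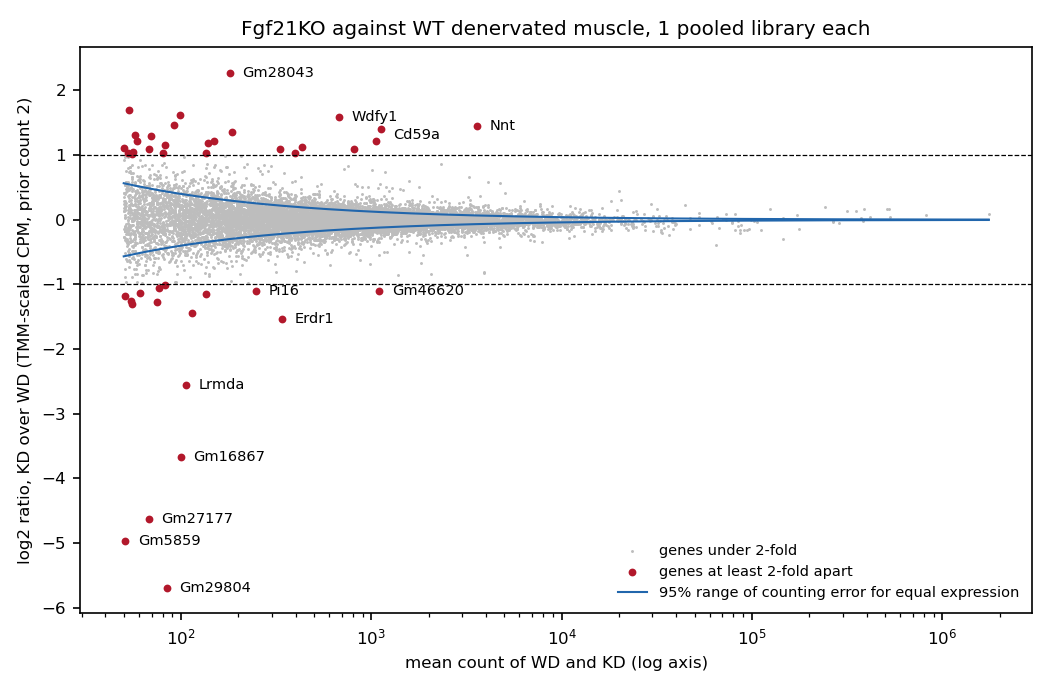
Log2 ratio of KD over WD (vertical axis) against the mean count of both libraries (horizontal log axis) for the 11375 genes, with the 43 genes at least 2-fold apart in red, dashed lines at 2-fold, and blue lines at the 95% range of counting error for equally expressed genes. Most red points lie at the low-count end, and Nnt stands at 1.45 with the highest mean count of the 43.

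The interferon-inducible GTPases were higher in KD in nearly every member. These proteins, the immunity-related GTPases (Igtp, Irgm1, Irgm2, Iigp1, Tgtp1, Tgtp2) and the guanylate-binding proteins (Gbp), are made in response mainly to interferon-γ and attack the membranes around intracellular parasites and bacteria. Their promoters are known for the γ-activated site (GAS) and the interferon-stimulated response element (ISRE), and interferon regulatory factors bind the latter. The sequences below are shown because 5 of these promoters carry both elements at the same spacing, and Gbp2 is set beside them as a member with a high ratio and the ISRE core alone. They are the 120 bases before the RefSeq transcription start on GRCm38.p6, 5′ to 3′ on the gene's strand, with capitals for GAS (TTCNNNGAA) and for a 9-base core of the ISRE (GAAANNGAA), each searched on both strands.

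Tgtp1 (chr11:48992247-48992366, minus strand): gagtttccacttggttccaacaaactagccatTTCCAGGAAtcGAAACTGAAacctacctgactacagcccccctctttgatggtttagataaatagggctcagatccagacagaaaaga
Tgtp2 (chr11:49064213-49064332, minus strand): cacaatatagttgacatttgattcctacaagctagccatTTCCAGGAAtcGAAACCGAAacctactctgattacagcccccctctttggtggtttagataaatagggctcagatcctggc
Igtp (chr11:58199436-58199555, plus strand): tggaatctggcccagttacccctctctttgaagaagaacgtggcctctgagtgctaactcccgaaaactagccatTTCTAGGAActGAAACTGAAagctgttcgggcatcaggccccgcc
Irgm2 (chr11:58214857-58214976, plus strand): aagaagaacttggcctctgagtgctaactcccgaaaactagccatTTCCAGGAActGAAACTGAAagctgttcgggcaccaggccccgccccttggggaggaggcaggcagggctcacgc
Gm12185 (chr11:48927183-48927302, minus strand): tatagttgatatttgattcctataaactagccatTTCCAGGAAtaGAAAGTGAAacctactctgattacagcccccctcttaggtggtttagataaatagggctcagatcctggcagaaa
Gbp2 (chr3:142620543-142620662, plus strand): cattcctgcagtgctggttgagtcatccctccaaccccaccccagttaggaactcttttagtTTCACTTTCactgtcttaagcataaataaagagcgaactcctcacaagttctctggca

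In Tgtp1, Tgtp2, Igtp, Irgm2 and Gm12185 the ISRE core began exactly 11 bases after the first base of the GAS, while Gbp2 held an ISRE core on the opposite strand and no GAS match. Gbp7, not printed, also held both, with its ISRE core 54 bases after the first base of its first GAS. Of the 16 kept members of the family, 11 had a promoter in the RefSeq table, and 6 of those held both motifs (54.5%), against 20 of 8775 kept genes with a promoter (0.228%). GAS alone was found in 3.26% and the ISRE core in 2.83% of the 8775 promoters. The motifs do not overlap in these windows, the 5 promoters with the 11-base spacing belong to related genes, and a match describes letters only.

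Of the 16 GTPases kept, a family list drawn up after the values were seen and holding the genes that prompted it, 15 had ratios above 0, the median log2 ratio was 0.49, and 7 were at least 1.5-fold higher in KD, against 1.21% of all genes. Iigp1, which loads onto the vacuoles of parasites, had 534 counts in WD and 1089 in KD, with 296 in WS and 860 in KS. Its log2 ratio of KD over WD was 1.10 (interval 0.96 to 1.26). Gbp2, a guanylate-binding protein, had 219 counts in WD and 445 in KD, with 236 in WS and 520 in KS, for a log2 ratio of 1.09 (0.86 to 1.34). Both knockout libraries were above both WT libraries for these genes. Tgtp1 stood just under 2-fold, with 142 counts in WD and 270 in KD (log2 ratio 0.99, interval 0.71 to 1.31), and its near-identical copy Tgtp2 had 192 and 318 counts (0.80). Reads of the 2 copies may be split between them. Igtp was at 0.84, Gbp5 at 0.77, Gbp4 at 0.67, Gbp6 at 0.52 and Irgm2 at 0.47. Ifi47 was the exception, with 87 counts in WD and 56 in KD (−0.54, interval −1.07 to −0.06).

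The same 16 genes were all higher in KS than in WS, with a median log2 ratio of 0.71. The sham libraries are separate from the denervated ones, but by the design text they hold the other legs of the same mice and so are not separate animals. In summed CPM over the family, WS held 185, WD 267, KS 287 and KD 373, so both denervated libraries were above the sham library of their genotype. Gm12185 had 21 counts in WS, 98 in KS, 812 in WD and 847 in KD, and Gbp10 had 77, 253, 660 and 729. For these members the genotypes were far apart in sham muscle, with log2 ratios of 1.79 and 1.34, and close in denervated muscle, with 0.14 and 0.22.

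Antiviral effectors best known from type I interferon, a second list drawn up after the values were seen, had a median log2 ratio of −0.01 over 13 kept genes, with 6 above 0 and none at least 1.5-fold apart in either direction. The highest were Ifit1, which binds viral RNA, with 71 and 97 counts (0.51, interval 0.07 to 0.99), and Ifit3b, with 106 and 138 (0.45, interval 0.08 to 0.84). In sham muscle 9 of these 13 genes were above 0, with a median of 0.09, and 5 intervals lay above 0 and 1 below. Ifit3b was at 0.77 there (interval 0.50 to 1.06). The difference between this list and the GTPases was not tested. Rsad2, which blocks viral replication, had 277 counts in WD and 250 in KD (−0.07), and Usp18, the brake on the interferon receptor, had 49 and 52 (0.16). These 2 intervals, −0.32 to 0.18 and −0.43 to 0.76, included 0. Irf1, an interferon regulatory factor that acts upstream of the GTPases, had 289 and 376 counts (0.45, interval 0.23 to 0.68). Psmb9, a subunit of the immunoproteasome that trims antigens, had 58 counts in WD and 101 in KD (0.85). The checkpoint ligand gene Cd274 had 163 and 284 counts (0.87, interval 0.59 to 1.16), and the transactivator Nlrc5 of MHC class I genes had 97 and 134 (0.53). Over the full list of 41 kept interferon-induced genes the median was 0.24, with 29 above 0, where 48.0% of all genes were above 0, and 6 were at least 1.5-fold higher and 0 lower, where 1.21% and 1.1% of all genes were.

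**Figure D2:**
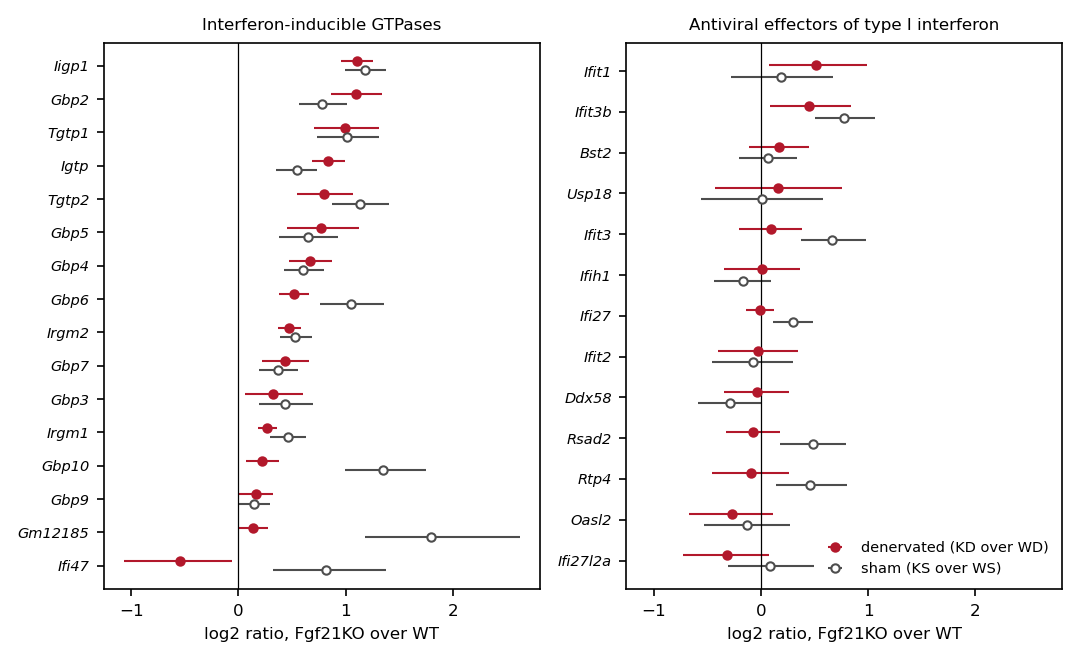
Log2 ratio of Fgf21KO over WT (horizontal axis) with 95% counting intervals for each kept gene of 2 interferon-inducible families, in denervated muscle (filled red) and sham muscle (open grey). The GTPases lie to the right of 0 in both except for Ifi47 in denervated muscle, and the antiviral effectors lie around 0 in denervated muscle.

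Of the MHC and antigen presentation genes, 13 of 15 kept had ratios above 0, with a median of 0.16, where 48.0% of all genes were above 0. In sham muscle 8 of these 15 were above 0, with a median of 0.01. The nonclassical class I genes H2-Q6, with 200 counts in WD and 344 in KD (0.85), and H2-Q7, with 118 and 169 (0.59), were the 2 that were at least 1.5-fold higher in KD, against 1.21% of all genes. They are near-identical copies. The classical class I gene H2-K1, with 2448 and 2613 counts, was at 0.17, and the class II gene H2-Ab1, with 547 and 494, was at −0.07. Leukocyte markers are given beside these values. Of 14 kept macrophage markers 8 were above 0, and their summed level was 91.4 CPM in WD and 93.1 in KD. The highest was Tyrobp, an adaptor of myeloid receptors, with 56 counts in WD and 88 in KD (0.71), and the lowest was Csf1r, the receptor for the macrophage growth factor, with 203 and 143 (−0.42). Of 16 lymphocyte markers only Ighm, a B cell immunoglobulin gene, was kept, with 305 counts in WD and 309 in KD (0.10), and with 1428 in WS and 2632 in KS (0.53, interval 0.43 to 0.62). T cell markers were not analysed here. In bulk RNA, fewer cells of a type and less RNA per cell cannot be told apart. The part of immune cells in the interferon values was not tested.

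Nnt and Wdfy1 were the highest of the well-counted genes. Nnt encodes the transhydrogenase of the inner mitochondrial membrane that makes NADPH, and C57BL/6J mice are known to carry a deletion within it. It had 2012 counts in WD and 5207 in KD, with 441 in WS and 3699 in KS. Its log2 ratio was 1.45 (interval 1.38 to 1.52) in denervated and 2.71 in sham muscle. Wdfy1, an endosomal adaptor of Toll-like receptors, had 350 counts in WD and 998 in KD, with 240 in WS and 835 in KS, for a ratio of 1.58 (1.41 to 1.77). Both knockout libraries were above both WT libraries for each gene. No other mitochondrial NADPH or antioxidant gene of the 17 kept was at least 1.5-fold apart, and the median of that list was 0.00.

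Nnt and Wdfy1 are among 7 kept genes known to differ between substrains of C57BL/6. Entpd4 and Entpd4b, near-identical genes of a Golgi nucleotidase, were on the other side, with 5065 and 2739 counts for Entpd4 (−0.81) and 5117 and 2746 for Entpd4b (−0.82). Fgfbp3, Cyfip2 and Ide were between −0.01 and 0.03. Which substrain or strain the knockout alleles were kept on is not given, so strain background and the loss of Fgf21 cannot be told apart for these genes.

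The lowest ratios belonged to predicted genes that were nearly absent from both knockout libraries. Gm29804 had 168 counts in WD and 1 in KD, with 74 in WS and 1 in KS, and Gm5859 had 101 and 1, with 46 and 1. Gm27177 had 132 counts in WD and 3 in KD, with 64 in WS and 5 in KS. Their log2 ratios, −5.69 (interval −12.63 to −4.82), −4.97 (−11.90 to −4.07) and −4.63 (−7.68 to −3.80), depend on the prior count. Gm16867 followed with 187 counts in WD and 12 in KD (−3.67), and Lrmda, a gene of melanocyte differentiation, with 185 and 28 (−2.56) and with 55 in WS and 7 in KS. Of the 17 lower genes, 8 were predicted genes or cDNA clones.

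Some of these genes lie together. In RefSeq GRCm38.p6, Gm16867 overlaps Entpd4 and Gm27177 overlaps Entpd4b, and Gm29804 and Gm5859 lie within 1 Mb of each other. How strand was used in counting is not stated, so reads of overlapping genes cannot be told apart here. Gm28043, the highest ratio of all with 63 counts in WD and 297 in KD (2.27, interval 1.92 to 2.73), overlaps Rnf8, Cmtr1 and Ccdc167. Those 3 genes were at −0.25, 0.01 and −0.03. Gm21992, with 171 and 58 counts (−1.45), overlaps the RNA-binding protein genes Rbm4, Rbm4b and Rbm14, which were at 0.42, 0.30 and 0.38, so the overlapping models went opposite ways. Gm28043 also lies within 1 Mb of Pi16, and Gm21992 within 1 Mb of Cd248, both described below. Of the 42 genes matched to RefSeq, 12 overlap another gene of the table, against 21.1% of the kept genes matched. Erdr1 and Gm33272 had 514 and 167 counts (−1.53) and 81 and 30 counts (−1.30), and both were lower in KS than in WS as well.

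Genes beside Fgf21 itself were examined because a knockout allele changes its own locus. Within 10 Mb of Fgf21 on GRCm38.p6, 102 genes were kept, of which 1, Clec11a, was at least 2-fold apart, where 0.378% of all genes were. At least 1.5-fold apart with an interval that excluded 0 were 2 higher and 3 lower genes, against 1.21% and 1.1% of all genes. In the nearest 100 kb, 10 genes were kept, and their values were read in order along the chromosome. On one side, Ppp1r15a, Plekha4 and Bcat2 were at −0.10, 0.05 and −0.15, and only the interval of Bcat2 (−0.25 to −0.06) excluded 0. On the other side the nearest kept gene was Rasip1, a Ras effector of blood vessel endothelium, with 392 counts in WD and 230 in KD (−0.69, interval −0.93 to −0.45). Next came A030001D20Rik at −0.47, with 90 and 61 counts and an interval (−0.98 to 0.002) that just included 0. Then came Mamstr, a coactivator of MEF2 transcription factors in muscle, with 2691 and 1429 counts (−0.83, interval −0.93 to −0.74). Car11 followed at −0.51, with 127 and 84 counts, and beyond it Dbp, Sphk2 and Rpl18 were at 0.15, −0.08 and 0.03. The same 4 neighbours were lower in sham muscle, where Rasip1 had 639 counts in WS and 537 in KS (−0.60), A030001D20Rik was at −0.67, Mamstr had 863 and 737 (−0.58) and Car11 was at −0.52. Lower values in sham muscle were not confined to that side. Plekha4 was at −0.73 (interval −1.16 to −0.32), Bcat2 at −0.17 (−0.27 to −0.06) and Ppp1r15a at 0.00. The targeted allele, linked strain sequence and the lack of FGF21 protein cannot be told apart for any of these neighbours, and these genes were chosen for their position. Markers of endothelium, where Rasip1 acts, had a median of −0.06 in denervated muscle, with 5 of 13 intervals below 0 and 1 above, and of −0.27 in sham muscle, with 11 below, and their part in its values was not tested.

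Cd59a, which shields cells from the membrane attack complex of complement, had 637 counts in WD and 1606 in KD, with 588 in WS and 1501 in KS. Its log2 ratio was 1.41 (interval 1.28 to 1.55), and KS stood above WS as well. Its copy Cd59b, with 85 and 147 counts, was at 0.85. Pcdhga6, a neuronal cell-recognition protocadherin, had 50 counts in WD and 134 in KD (1.46), with 30 in WS and 103 in KS, whereas its cluster neighbour Pcdhgb2 had 184 and 97 (−0.83). The pseudogenes Pisd-ps1, with 659 and 1464 counts (1.23), and Pisd-ps2, with 87 and 190 (1.18), share sequence and may share reads.

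The remaining genes of the 43 were mostly of low counts. Gm46620, a predicted gene, had 1526 counts in WD and 673 in KD (−1.10), with 1282 in WS and 1143 in KS. Among zinc finger genes, Zfp968 had 107 and 264 (1.36) and Zfp605 189 and 80 (−1.14), and Unc119, a lipid-binding chaperone, had 92 and 206 (1.22). H2aw, a histone H2A gene, had 49 and 148 (1.63), Gm15834 25 and 82 (1.70), Eif5a2, a translation factor that carries hypusine, 33 and 81 (1.32), and the desmosome-associated Perp 52 and 112 (1.15). Zfp185, Fam107b, Pcdh18 and Sp3os were between 1.01 and 1.05. On the lower side Lyz1, a lysozyme, had 86 and 36 counts (−1.13), the mitochondrial aldolase gene Hoga1 106 and 47 (−1.06) and 4833439F03Rik 113 and 52 (−1.01). The whole counting interval lay beyond 2-fold for 16 of the 43 genes and beyond 1.5-fold for 37. Just under 2-fold were Tgtp1 at 0.99 and Plac9b at −0.99.

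Over all 43 genes, 11 were at least 2-fold apart in the same direction in sham muscle and 3 in the opposite direction, where 0.695% of the 11375 genes were at least 2-fold apart between KS and WS. The 11 made up 25.6% of the 43 genes in denervated muscle and 13.9% of the 79 in sham muscle. In sign alone, 23 of the 43 had the same direction in sham muscle, and 53.6% of all genes did. Of the 26 higher genes 14 had sham ratios below 0, and of the 17 lower genes 6 had sham ratios above 0.

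**Figure D3:**
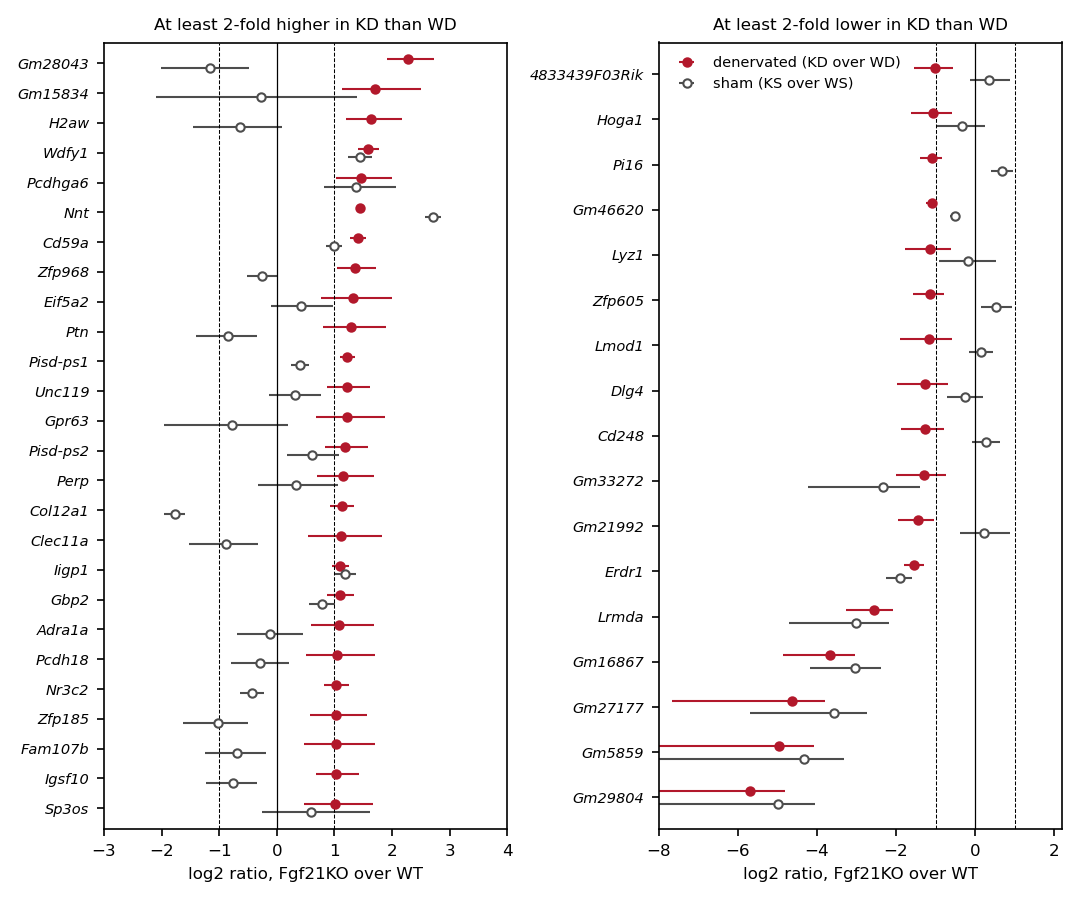
Log2 ratio of Fgf21KO over WT (horizontal axis) with 95% counting intervals for the 43 genes, in denervated muscle (filled red) and sham muscle (open grey), with dashed lines at 2-fold and intervals cut at the edge of the axis. The 5 lowest genes, Gm29804 to Lrmda, lie far to the left in both, whereas Gm28043, Col12a1 and Zfp185 lie at least 2-fold on opposite sides of 0.

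Connective tissue genes were apart in both directions. Fibroblasts of muscle, also called fibro-adipogenic progenitors, lay down collagen around the fibres, and a subset marked by Pi16 sits in the outer adventitial layer. Pi16, a peptidase inhibitor, had 345 counts in WD and 152 in KD (−1.09, interval −1.39 to −0.83), with 149 in WS and 305 in KS. Cd248, the stromal receptor endosialin, had 108 counts in WD and 41 in KD (−1.28, interval −1.88 to −0.79), with 111 in WS and 171 in KS. KD was the lowest of the 4 libraries in CPM for Cd248 and for Pi16, while KS was above WS for both. Of 14 kept genes known from the Pi16 subset, a list drawn up after the values were seen and holding these 2, 12 were below 0 and 5 were at least 1.5-fold lower. Without Pi16 and Cd248, 10 of 12 were below 0 and 3 were at least 1.5-fold lower, where 1.1% of all genes were. Leaving these 2 out does not make it a separate check, since the list was chosen with the same values known. The 3 were Pcolce2, an enhancer of procollagen cleavage, with 74 and 37 counts (−0.88), the heparan sulfate proteoglycan Gpc3 with 93 and 49 (−0.82), and the IGF carrier Igfbp6 with 258 and 161 (−0.60). In sham muscle 11 of the 14 were above 0, and 9 of the 12.

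Of 16 kept general fibroblast markers, which include Pi16 and Cd248, 6 were above 0 with a median of −0.05. Without Pi16 and Cd248 the median was −0.03 over 14 genes, and none was 1.5-fold apart. The summed level of the markers was 776 CPM in WD and 795 in KD, to which Col1a2 added 103 and 133. Pdgfra, the defining receptor of these cells, had 221 and 243 counts (0.21, interval −0.05 to 0.48), Dcn was at −0.04 and Col1a2, with 3372 and 4103 counts, at 0.36. Single collagens were apart in both directions. Col12a1, which links collagen fibrils in tendon and muscle sheath, had 280 counts in WD and 581 in KD (1.12, interval 0.92 to 1.34) but 860 in WS and 322 in KS (−1.77). Col8a1 had 208 and 322 counts (0.70) and Col8a2 48 and 73 (0.66), while Col14a1 had 192 and 119 (−0.60). Over 43 kept collagens and collagen-processing enzymes the median was 0.03, with 3 at least 1.5-fold higher and 2 lower, against 1.21% and 1.1% of all genes. In sham muscle the median of these 43 was −0.16, with 21 intervals below 0 and 3 above, so lower sham values were not particular to Col12a1.

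Among other matrix genes, Cilp, a matrix protein that binds TGF-β, had 3392 counts in WD and 4835 in KD (0.59, interval 0.53 to 0.65), with 502 in WS and 443 in KS. Postn, the periostin gene of active fibroblasts, had 685 and 955 (0.56), with 1232 in WS and 558 in KS (−1.49). Spp1, the osteopontin gene of damaged muscle and macrophages, had 2283 and 1355 counts (−0.67, interval −0.77 to −0.58), with 82 in WS and 70 in KS, and Fn1, fibronectin, had 1405 and 939 (−0.50). Of 45 kept matrix proteins and proteases, 2 were at least 1.5-fold higher and 1 lower, against the same 1.21% and 1.1%. The median of these 45 was −0.08 in denervated and −0.26 in sham muscle, where 27 intervals lay below 0 and 5 above. Further secreted genes at least 2-fold higher were Ptn, the heparin-binding factor pleiotrophin, with 41 and 98 counts (1.29), Igsf10 with 91 and 178 (1.03), and Clec11a, a bone growth factor, with 32 and 68 (1.11). All 3 were below 0 in sham muscle, at −0.84, −0.77 and −0.88. Clec11a is the gene named above as lying within 10 Mb of Fgf21.

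**Figure D4:**
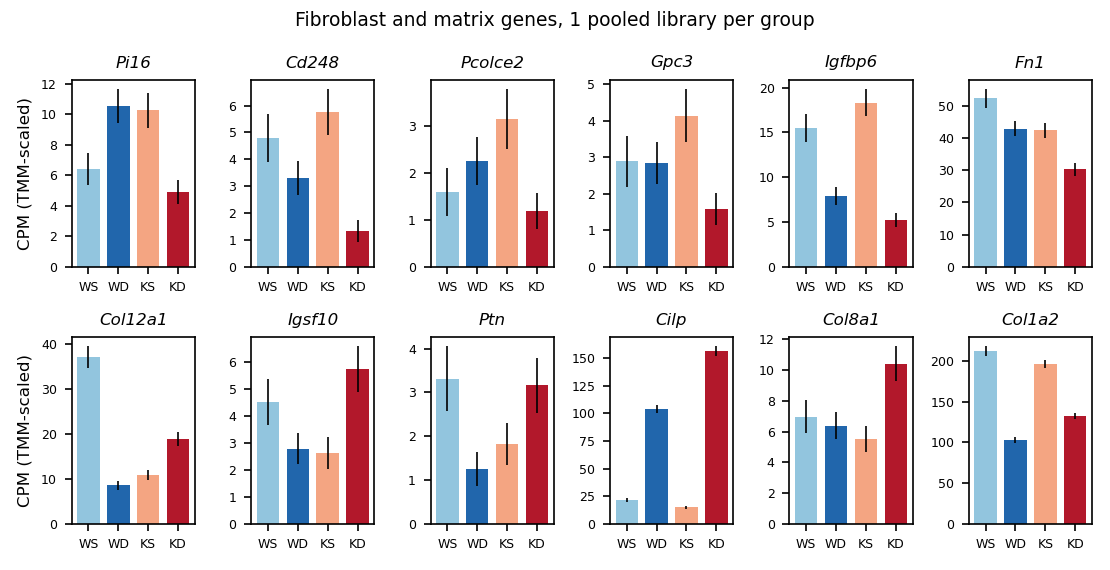
CPM (vertical axis, from 0) of 12 fibroblast and matrix genes in the 4 pooled libraries, with bars for counting error (95%, normal approximation). In the upper row KD is the lowest bar for each gene, and in the lower row KD is above WD for each gene. The 12 genes were picked and placed in rows with these values known, so this pattern follows from the choice.

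Receptors, guidance and signaling genes included several low-count differences. Nr3c2, the mineralocorticoid receptor, had 270 counts in WD and 527 in KD (1.04, interval 0.83 to 1.26), with 380 in WS and 360 in KS (−0.43, interval −0.64 to −0.22). Adra1a, the α1A-adrenergic receptor, had 44 and 91 (1.09), and Gpr63 had 36 and 82 (1.22). Chrm3, a muscarinic acetylcholine receptor, had 111 and 190 (0.84). Dlg4, the postsynaptic scaffold PSD-95, had 79 and 30 counts (−1.26), and Lmod1, a smooth muscle actin nucleator, had 72 and 29 (−1.18), while smooth muscle and pericyte markers had a median of 0.01 over 9 kept genes. Of 37 kept axon guidance genes, 2 were at least 1.5-fold higher (1.21% of all genes) and 4 lower (1.1%), with a median of −0.08. The lower ones included Slit3 with 127 and 61 counts (−0.96) and the netrin receptor gene Unc5b with 185 and 95 (−0.87), and the higher ones were Sema5a with 60 and 90 (0.64) and the Slit receptor gene Robo2 with 314 and 448 (0.59). Robo2 had 17 counts in WS and 36 in KS.

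Immediate early and growth genes were lower in a few cases. Nr4a1, a nuclear receptor induced by activity and by adrenergic signals, had 1808 counts in WD and 942 in KD (−0.86, interval −0.98 to −0.75), with 4365 in WS and 6608 in KS. It was the only one of 20 kept AP-1 and immediate early genes at least 1.5-fold apart, where 1.21% of all genes were higher and 1.1% lower. Fos had 146 and 94 counts (−0.55, interval −0.95 to −0.17), Jun 6789 and 7005 (0.12) and Egr1 224 and 276 (0.38). Mki67, a proliferation marker, had 77 and 40 counts (−0.83), and Ccnd1, cyclin D1, had 412 and 222 (−0.81), but Rrm2 with 439 and 601 (0.53) and Pcna with 772 and 885 (0.27) lay on the other side. Of 44 kept chemokine, interleukin and TNF family genes, 0 were at least 1.5-fold higher and 3 lower, against 1.21% and 1.1% of all genes, namely Il16 (−0.76), the fractalkine gene Cx3cl1 (−0.67) and Csf1 (−0.64).

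Among genes that the study followed by other assays, the class IIa deacetylases and Fbxo32 differed little in RNA. The study reported Hdac4 mRNA as unaffected by the loss of Fgf21. Its genotype differences for HDAC4 and for atrogin-1, the product of Fbxo32, were in protein, which these data do not measure. Hdac4, the deacetylase that carries the loss of nerve activity to gene expression, had 9437 counts in WD and 9222 in KD, with 1030 in WS and 1233 in KS. The log2 ratio of KD over WD was 0.04 (interval 0.00 to 0.09), and that of KS over WS was −0.09 (−0.22 to 0.03). Hdac5 was at −0.18 and Hdac7 at −0.04. The list they belong to also holds MEF2 factors and kinases, among them the subunits of AMPK, and none of its 20 kept genes was 1.5-fold apart. Fbxo32, the atrophy ubiquitin ligase atrogin-1, had 20840 and 20540 counts (0.06), with 6780 in WS and 8028 in KS (−0.11, interval −0.16 to −0.06). Foxo1 had 1874 and 2158 counts in WD and KD (0.28, interval 0.19 to 0.37). Over 20 atrophy ligases and FoxO factors the median was −0.02, with none 1.5-fold apart.

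At the neuromuscular junction, Chrnb1, the β subunit of the acetylcholine receptor, had 6952 counts in WD and 7125 in KD (0.11, interval 0.07 to 0.16), against 886 in WS and 1088 in KS (−0.06, interval −0.19 to 0.07). Lrp4, the agrin receptor, had 969 and 1010 (0.14), Agrn 672 and 744 (0.22), and App 5172 and 4961 (0.02). Etv5, a factor that drives synaptic genes and a target of FGF signaling, had 706 and 466 counts (−0.52, interval −0.69 to −0.35), and Erbb3, a neuregulin receptor gene, had 335 and 420 (0.40). None of the 10 kept genes was 1.5-fold apart. Chrna1, Chrnd, Chrng, Musk, Dok7 and Trim63 were not analysed here.

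In the FGF pathway, Fgfr1, a receptor that pairs with β-Klotho, had 2439 counts in WD and 2269 in KD (−0.03), and Fgfr4 had 76 and 99 (0.45, interval 0.01 to 0.91). Feedback inhibitors went both ways, with Dusp6 at −0.24 and Spred1 at 0.31. None of 19 kept genes was 1.5-fold apart. Fgfr2, a receptor just under the filter on low counts, had 21 counts in WD and 70 in KD (1.71, interval 1.09 to 2.59), with 42 in WS and 18 in KS (−1.48). In the TGF-β pathway, Tgfb1 had 1014 counts in WD and 821 in KD (−0.23, interval −0.36 to −0.09), Smad3 5491 and 5858 (0.17) and Ccn2 353 and 236 (−0.50, interval −0.75 to −0.26). Of 24 kept genes 14 were above 0, and none was 1.5-fold apart. Inhba, the activin A subunit, was also under that filter, with 6 counts in WD and 26 in KD. The AMPK catalytic subunits Prkaa1 and Prkaa2 were at 0.14 and −0.20.

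Metabolic and contractile genes were nearly level. Of 29 kept glycolysis and glycogen genes 24 were below 0, with a median of −0.10, and 19 had intervals below 0, against 16.6% of all genes. An interval is narrower at higher counts, so this share is not a like comparison for lists with high counts. In sham muscle 20 of the 29 were above 0, with a median of 0.04, and 17 had intervals above 0 and 5 below. The lowest in denervated muscle were the glucose transporter Slc2a1 with 388 and 267 counts (−0.46) and the glycolytic activator Pfkfb3 with 3631 and 2575 (−0.42). The 77 nuclear respiratory chain genes ran from −0.15 to 0.14 with a median of −0.03, and 29 had intervals below 0 and 10 above. Of the 13 mitochondrially encoded genes 12 were above 0, with a median of 0.09, and this was 0.25 in sham muscle. Fatty acid genes had a median of −0.05 over 37, where Lpl, with 9021 and 6729 counts, was at −0.35, and Ppargc1a, with 2292 and 1785, at −0.28. Myh1, the fast IIx myosin, had 510937 and 542326 counts (0.16), and Myl4, an embryonic myosin light chain, had 926 and 1238 (0.50). Ribosomal proteins (85 cytosolic genes, median 0.00) and proteasome subunits (46 genes, median 0.01) stood at the median of all genes.

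**Figure D5:**
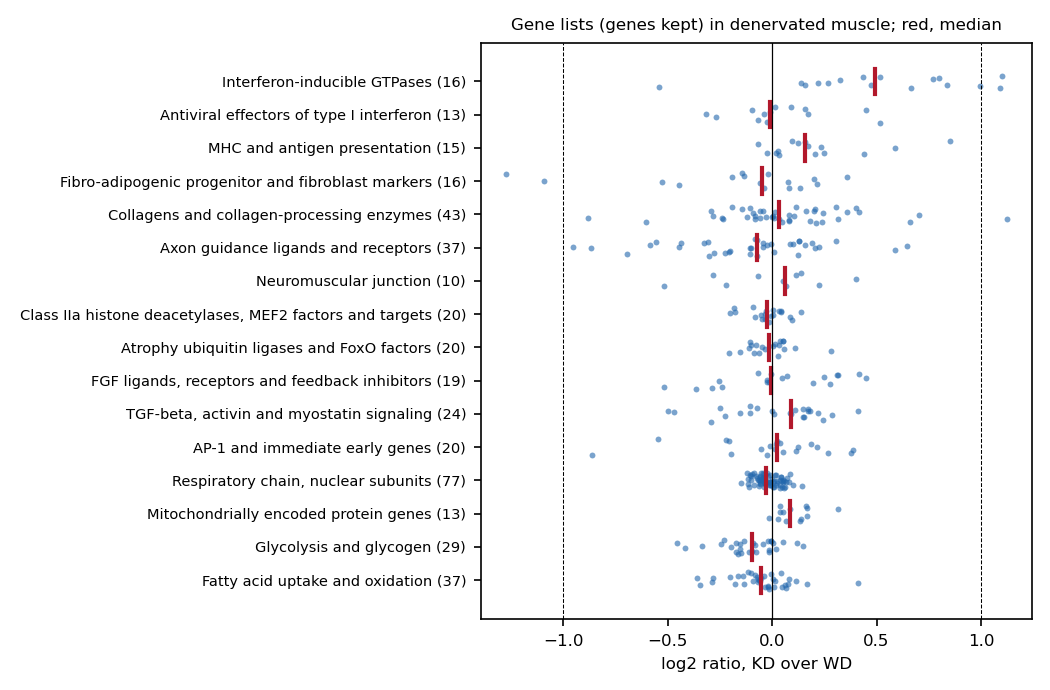
Log2 ratio of KD over WD (horizontal axis) for the kept genes of 16 lists, 1 point per gene, with the number of genes in brackets, a red bar at the median and dashed lines at 2-fold. The median of the interferon-inducible GTPases is 0.49, and the medians of the other 15 lists shown lie between −0.10 and 0.16. Lists not shown include the Pi16 fibroblast genes (median −0.30), the red blood cell genes (−0.31) and the full list of interferon-induced genes (0.24).

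Cell type markers were compared by their summed levels. Myofibre markers were at 40551 CPM in WD and 41912 in KD. Endothelial markers summed to 427 and 409 CPM (942 in WS and 772 in KS), smooth muscle and pericyte markers to 704 and 700, and Schwann cell and nerve markers to 31.3 and 30.1. Adipocyte markers summed to 7511 and 8573 CPM, with 2558 in WS and 3451 in KS, and Car3, which muscle fibres also express, made up 7079 CPM of this sum in WD and 8129 in KD. Of 10 tendon markers only Fmod was kept, with 976 and 1066 counts (0.20, interval 0.08 to 0.33). Red blood cell genes were at 208 CPM in WD and 170 in KD, and all 5 kept were below 0 with a median of −0.31. Their part in the results was not tested.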

How the data were processed

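RNA of 4 TA muscles per group was pooled by the authors, and TruSeq Stranded mRNA libraries were sequenced, 1 library per group. The authors deposited read counts per gene symbol, not normalized, for WS, WD, KS and KD. The processing notes name FastQC and GRCm39, and the aligner, counter and annotation are not given in the sources used here. The authors also deposited a table on the log2 scale, which is a log2 transform of counts scaled by 1 factor in each library (plus 1) and serves here as an alternative only. The number of per-sample columns left unused was 0. Totals were 25249879 (WS), 29150147 (WD), 34141303 (KS) and 27740920 (KD) counts, and 3 counts were 0.0919 CPM in WD and 0.097 CPM in KD.

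Libraries were scaled by TMM over all 4 libraries (edgeR 4.0.16, R 4.3.3) on genes whose mean count reached 10. Log2 ratios of CPM used a prior count of 2, and genes averaging at least 50 counts in WD and KD were kept. Exact 95% (Clopper-Pearson) intervals of the count share were converted to log2 ratios with scipy 1.17.1. They cover counting error only, without molecular identifiers. The ratio and interval code was tested on simulated data. The methods of the study name edgeR with adjusted p-values, and with 1 library per group no p-value is given here. Genes were called by fold, at 2-fold or at 1.5-fold with an interval that excluded 0. Alternatives were DESeq2 1.42.0 size factors, total counts, other filters and prior counts, the log2 table, and edgeR's exact test at assumed variation.

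The genes and lists were chosen with earlier results of these data known. Genes named by rule are the 15 highest and 15 lowest ratios, in each list the members at least 2-fold apart and the 2 highest and 2 lowest, the genes the study followed by other assays, and Nnt and Wdfy1. Further genes were picked once their values were known, as were the lists of GTPases, antiviral effectors and Pi16 fibroblast genes. Symbols were matched to RefSeq GRCm38.p6 (11236 of 11375), which was used for neighbours and promoters only, since the files use GRCm39. Some results that these rules would name are not reported here.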

Additional observations from a re-analysis of the deposited data

Results flagged for a closer look

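At least 2-fold apart between genotypes, but in opposite directions in denervated and sham muscle, were 3 of the 11375 genes. Gm28043 had a log2 ratio of Fgf21KO over WT of 2.27 in denervated and −1.16 in sham muscle, from 63, 297, 44 and 24 counts in WD, KD, WS and KS. Col12a1 was at 1.12 and −1.77, and Zfp185, a cytoskeletal LIM protein gene, was at 1.03 (54 counts in WD and 107 in KD) and −1.02 (73 in WS and 45 in KS). The 43 kept collagens and collagen-processing enzymes, Col12a1 among them, had a median of 0.03 in denervated and −0.16 in sham muscle. With 1 library per group the difference between the 2 conditions was not tested.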

How the results depend on the processing

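The counts of genes followed the filter on low counts. At a mean count of at least 10, 109 genes were at least 2-fold higher and 92 lower in KD, and 281 and 256 passed 1.5-fold beyond counting error. With no filter these were 150, 114, 293 and 261, and at a mean count of at least 200 they were 8, 3, 31 and 23. On the deposited log2 values with a pseudocount of 1, 11 genes were higher and 8 lower. With the biological coefficient of variation set to 0.1, edgeR's exact test with Benjamini-Hochberg adjustment kept 19 higher and 11 lower genes, with 0.2 it kept 1 higher and 5 lower, and with 0.4 it kept 0 higher and 3 lower. That count of 19 and the other counts, under other scaling, prior counts or a pseudocount of 0.1 or without overlapping genes, an alternative chosen after seeing the data, were within 1.5 times of the main ones (25 in all). All 306 recomputed list medians stayed within the counting error of their members. Of 1205 recomputed ratios of named genes 4 moved beyond their intervals, those of Myh1 under total counts and under TMM of the denervated libraries, and those of Gm5859 and Gm29804 at a prior count of 5 (−4.00 and −4.70), and none of the called ones changed sign. No paired analysis was possible because pooling left 1 library a group, and no replicate could be left out for the same reason. Depth limits the 24 genes with mean counts under 100 most.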
